A study of Citrus trifoliata and Citrus junos with 20 samples.

Results

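Of the 51 predicted miRNAs counted in citrus roots, 8 were read in every library of Ziyang xiangcheng (Citrus junos, Cj) and were near absent from trifoliate orange (Poncirus trifoliata, Pt). They were chosen from the counts themselves. The pooled level over the 9 Cj libraries had to reach 50 RPM (reads-per-million of the miRNA reads listed for a library), and the pooled level over the 9 Pt libraries had to lie under 5% of it. The 8 were csi-miRN04, csi-miRN12, csi-miRN16, csi-miRN27, csi-miRN30, csi-miRN41, csi-miRN42 and csi-miRN44, out of 100 miRNAs in all, 49 of them known. csi-miRN41 and csi-miRN42 are 1 sequence under 2 names and have identical counts, so the 8 names stand for 7 sequences. Since the difference between Cj and Pt chose them, that difference is described here and not tested.

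Seedlings of both rootstocks were kept in nutrient solution for 8 weeks at a normal pH (6.5) or an alkaline one (8.0 or 9.5), to ask how a tolerant rootstock (Cj) and a sensitive rootstock (Pt) differ under alkaline stress. Small RNA was sequenced from roots in 6 groups of 3 libraries, namely Cj at each pH and Pt at each pH, with 3 seedlings pooled in each library. Whether the pools of a group grew in vessels of their own is not stated, so the p-values cover the spread from pool to pool and no more. The 2 rootstocks are different species, and reads of both were matched to the genome of another species, sweet orange (Citrus sinensis). The libraries held 77255 (Pt pH 8.0 replicate 1) to 771522 listed miRNA reads, and a level of 3 reads corresponds to between 3.89 and 38.8 RPM in a single library.

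Plant miRNAs are cut by Dicer-like enzymes from an RNA that folds back on itself into a hairpin. The enzyme releases a duplex of the mature strand and a partner called the star, the mature strand is loaded into an Argonaute protein, and it then guides cleavage or repression of transcripts with a matching site. In Arabidopsis, Dicer-like 1 makes most miRNAs of 21 and 22 nt, while 24-nt small RNAs are the usual product of Dicer-like 3 and guide DNA methylation. Hairpins that exist in some species and not in their relatives are common among plant miRNAs, and such miRNAs often have no known target. Targets were not searched for here, so none is assigned to any of the 7 sequences. The authors reported targets for some predicted miRNAs from degradome reads, which were not analysed here.

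The mature sequences as listed are shown first because they define what was counted. They are written from the 5′ end, with the seed (bases 2 to 8) in capitals.
csi-miRN04: uAUUGCAUuauuuuaauacuggug
csi-miRN12: aUCUAUUUggaugaagauaagggc
csi-miRN27: gAAACAACuucgugagguaggaga
csi-miRN44: gUACUGUAgcugugagggggacgu
csi-miRN16: uUCGUUCGuugaaacucuaaa
csi-miRN30: uUGUCGCAggagcguuggcacc
csi-miRN41 and csi-miRN42: uUUCUCUUaucuuuuaucugug

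The first 4 are 24 nt long, csi-miRN16 has 21 nt, and the last 2 have 22 nt. The 7 seeds all differ, and none of the other listed miRNAs has any of them. Of the 7 sequences 4 were 24 nt long (57.1%), against 18 of the 43 other predicted miRNAs (41.9%). They began with U in 4 of 7 sequences, against 14 of 43. The deposited table assigned no family to 5 of the 7, against 16 of the 43. The 2 with a family were csi-miRN27, assigned to MIR477, and csi-miRN30, assigned to MIR3627. These shares describe 7 sequences, and none was tested. The 43 others were counted by name, without merging identical sequences among them. Of all predicted names 4 pairs are identical, csi-miRN41 and csi-miRN42 among them.

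The genome positions of the mature sequences lie on several chromosomes of Citrus sinensis, on the build used by the authors, whose release the sources used here do not name. csi-miRN16 is at chr2:22128526-22128546 (minus strand) and csi-miRN27 at chr2:27402639-27402662 (plus). csi-miRN41 and csi-miRN42 are both at chr4:7873577-7873598 (minus), csi-miRN30 at chr6:19948463-19948484 (plus) and csi-miRN12 at chr7:31634934-31634957 (minus). csi-miRN04 at chrUn:18664254-18664277 (minus) and csi-miRN44 at chrUn:4098104-4098127 (plus) are on unplaced sequence. Whether these positions lie in annotated genes was not analysed here.

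The 8 names rest on 7 loci. The hairpin windows of csi-miRN41 and csi-miRN42, each of 250 bases, overlap by 157 bases and place the mature sequence at the same position, so the pair is 1 locus predicted in 2 windows. In the folded structures the mature strand lies on the 5′ arm in 4 of the 7 and on the 3′ arm in csi-miRN27, csi-miRN41 and csi-miRN44. A duplex cut by a Dicer-like enzyme leaves 2 bases overhanging at the 3′ end of each strand. This was the case for both strands in 6 of the 7 sequences and in 33 of the 43 other predicted miRNAs. csi-miRN44 was the exception, with 1 base overhanging on each strand.

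csi-miRN27 and csi-miRN44 had the most stable folds of all predicted miRNAs, with energies of -157.9 and -150.8 kcal/mol as given by the prediction, against -122.2 for the next, csi-miRN46, and a median of -75.1 over the other 43. Their windows are shown because the arms match over far more than the mature strand. The mature and star strands are in capitals.
csi-miRN27: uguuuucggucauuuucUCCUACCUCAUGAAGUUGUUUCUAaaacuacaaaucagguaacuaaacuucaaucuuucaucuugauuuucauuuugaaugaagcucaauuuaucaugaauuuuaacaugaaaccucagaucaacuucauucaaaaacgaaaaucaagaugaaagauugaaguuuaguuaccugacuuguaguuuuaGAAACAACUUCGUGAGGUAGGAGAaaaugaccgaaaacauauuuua
csi-miRN44: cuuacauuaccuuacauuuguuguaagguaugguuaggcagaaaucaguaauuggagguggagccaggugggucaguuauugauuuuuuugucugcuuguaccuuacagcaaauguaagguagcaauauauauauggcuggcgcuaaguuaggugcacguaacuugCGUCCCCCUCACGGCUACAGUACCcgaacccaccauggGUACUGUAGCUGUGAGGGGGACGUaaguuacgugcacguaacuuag

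In the csi-miRN27 window 84.8% of the bases were paired, with an unbroken stem of 50 base pairs that holds the mature strand. All 24 bases of the mature strand of csi-miRN44 were paired as well, in an unbroken stem of 39 base pairs with 14 bases between the arms. Among the other 43 predicted miRNAs the longest unbroken stems were 48 and 46 base pairs and the median was 14. The other 5 sequences had ordinary hairpins, with unbroken stems of 9 to 16 base pairs. The prediction score of miRDeep2 was high for csi-miRN44 (10113.7), csi-miRN41 (5908.3) and csi-miRN30 (347.7). It was 5.2 for csi-miRN27 and lower for csi-miRN16 (1.1), csi-miRN12 (0.9) and csi-miRN04 (0.4). Its median was 4 over the other 43. The score did not simply follow the reads of the mature strand, since csi-miRN30 had 669 reads in Cj and csi-miRN12 had 1172.

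In Cj the 7 sequences together had between 4857 and 10975 RPM in a library. In Pt they had 119 reads of 5174518 listed reads in all. This was 0.324% of the pooled Cj level. csi-miRN44 alone made up 65.1% of the Cj reads and 59.7% of the Pt reads of the 7 sequences.

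**Figure D1:**
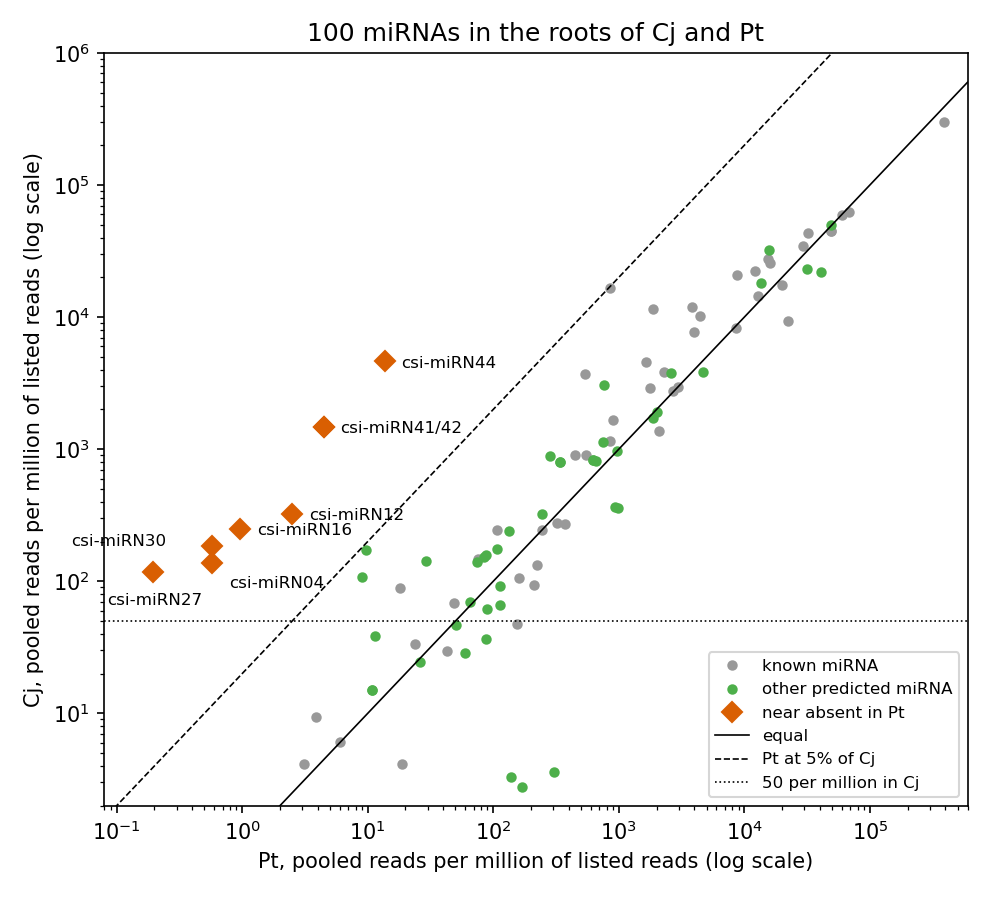
Pooled level of each of the 100 miRNAs in Cj (vertical axis) against Pt (horizontal axis), in RPM, both axes on a log scale. The diamonds mark the 8 chosen miRNAs (csi-miRN41 and csi-miRN42 at 1 point), the dashed line a Pt level at 5% of Cj and the dotted line 50 RPM in Cj. The 8 lie between 0.163% and 0.777%, and the nearest point on the other side of the dashed line is csi-miR477b at 5.10%.

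csi-miRN44, a 24-nt sequence, was the most abundant of them, with 4622 RPM in Cj and 13.7 in Pt, pooled over 9 libraries each. This ranked it 26th of 100 miRNAs in Cj and 84th in Pt. The ratio of Cj to Pt was 337 (95% interval 267 to 432). This interval and those of the ratios below cover counting error only, not the spread between libraries. The ratios chose the sequences, so the intervals are no test. Its 9 Pt libraries had 14, 4 and 6 reads at pH 6.5, 15, 5 and 8 reads at pH 8.0 and 4, 9 and 6 reads at pH 9.5, so that it was read in all of them. The 9 Cj libraries had between 1087 and 2994 reads. The groups of the 2 rootstocks were thus far apart at every pH.

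csi-miRN41 (and so csi-miRN42), of 22 nt, had 1468 RPM in Cj and 4.44 in Pt, a ratio of 330 (95% interval 220 to 521). Its reads numbered 502, 665 and 547 at pH 6.5, 318, 817 and 704 at pH 8.0 and 562, 607 and 597 at pH 9.5 in Cj, against 4, 2 and 3, then 4, 1 and 3, then 1, 2 and 3 in Pt at the same pH values. It was again read in each of the 9 Pt libraries, but only 23 times in all.

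The other 5 sequences had fewer reads. csi-miRN12 (24 nt) had 323 RPM in Cj and 2.51 in Pt, where 8 libraries held 13 reads in all. csi-miRN16 (21 nt) had 250 in Cj and 0.966 in Pt, where 3 libraries held 5 reads. csi-miRN30 (22 nt) had 185 in Cj and 0.580 in Pt, from 3 reads in 3 libraries. These 3 sequences were read in all 9 Cj libraries, at 43 reads or more.

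The least abundant in Cj were 2 of the 24-nt sequences. csi-miRN04 had 138 RPM in Cj and 0.580 in Pt, where its 3 reads lay in 2 libraries, both at pH 8.0. csi-miRN27 had 118 in Cj and 0.193 in Pt, the lowest of all 100 miRNAs there, from a single read in Pt pH 6.5 replicate 3 against 429 reads in Cj. With so few reads the ratios are loosely bounded, at 237 (95% interval 80.8 to 1156) for csi-miRN04 and 612 (109 to 24249) for csi-miRN27. For csi-miRN30, csi-miRN16 and csi-miRN12 the ratios were 318 (108 to 1548), 259 (110 to 799) and 129 (75.0 to 242).

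**Figure D2:**
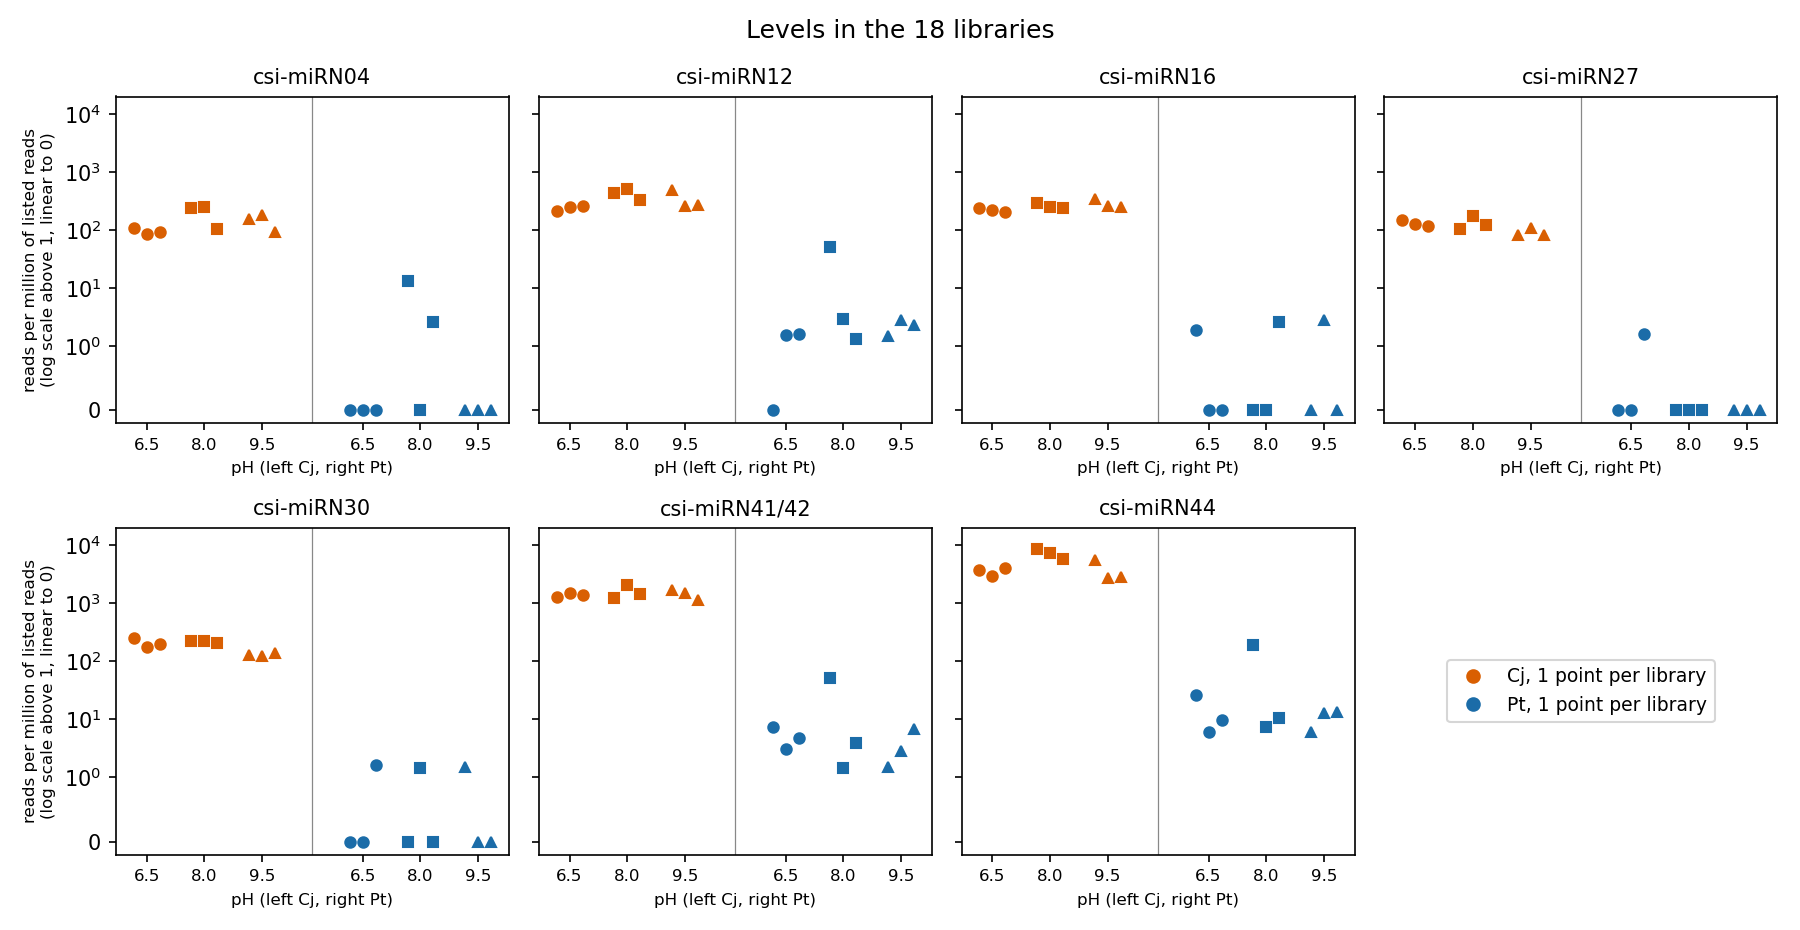
Level in RPM of the 7 sequences in each of the 18 libraries, with Cj on the left and Pt on the right of each panel and pH on the horizontal axis (1 point per library, log scale above 1 and linear down to 0). Every Cj library lies above every Pt library in each panel, and the highest Pt point of csi-miRN44, csi-miRN41, csi-miRN12 and csi-miRN04 is Pt pH 8.0 replicate 1.

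Pt pH 8.0 replicate 1, the library with the fewest reads, stood apart from the other Pt libraries. It held 1.49% of the listed Pt reads and 24 of the 119 Pt reads of the 7 sequences. It had 15 reads of csi-miRN44, 4 of csi-miRN41, 4 of csi-miRN12 and 1 of csi-miRN04. Together they came to 311 RPM (exact 95% interval 199 to 462), against 10.5 to 35.2 RPM in the other 8 Pt libraries. Without this library the Pt level of csi-miRN44 was 0.238% of Cj in place of 0.297%, that of csi-miRN41 0.254% in place of 0.303%, that of csi-miRN12 0.546% in place of 0.777% and that of csi-miRN04 0.285% in place of 0.421%. The part of this library in the spread of Pt levels was not tested further. In bulk roots, fewer cells that make a miRNA and less of it per cell cannot be told apart.

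The rule left a wide gap. The highest Pt level inside it was that of csi-miRN12, at 0.777% of Cj. Just outside lay csi-miR477b, a known miRNA, at 5.10%, and the predicted csi-miRN11 and csi-miRN01, both of 24 nt, at 5.62% and 8.40% with 172 and 108 RPM in Cj. The lowest Cj level inside was the 118 RPM of csi-miRN27. The same 8 names were found with Pt under 1% or with at least 25 or 100 RPM in Cj, and a limit of 10% added csi-miRN11 and csi-miRN01.

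A close relative by sequence was found for 2 of the 7. The star of csi-miRN41 differed from csi-miR3951, a known citrus miRNA, at 2 of 21 bases. In both lines the differing bases are in capitals, and they are C1U and G4A, with the star's base first and positions counted from its 5′ end.
csi-miRN41 star: CagGuaaagaugagagaaaaa
csi-miR3951: UagAuaaagaugagagaaaaa

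The hairpin listed for csi-miR3951 also carries a near copy of csi-miRN41 on its opposite arm, 2 edits away from it. Both hairpins are shown, with csi-miR3951 and the near copy in capitals in the first and the star and mature strands of csi-miRN41 in capitals in the second.
csi-miR3951 hairpin: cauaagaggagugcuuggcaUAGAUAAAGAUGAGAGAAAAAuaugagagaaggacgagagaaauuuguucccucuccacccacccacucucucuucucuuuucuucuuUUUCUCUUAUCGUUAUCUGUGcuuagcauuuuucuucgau
csi-miRN41 window: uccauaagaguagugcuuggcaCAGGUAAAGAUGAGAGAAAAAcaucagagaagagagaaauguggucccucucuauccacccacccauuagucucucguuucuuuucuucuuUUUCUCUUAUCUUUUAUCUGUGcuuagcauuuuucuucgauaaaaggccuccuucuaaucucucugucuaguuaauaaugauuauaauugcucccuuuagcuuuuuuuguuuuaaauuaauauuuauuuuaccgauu

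The whole csi-miR3951 hairpin of 148 bases matched the csi-miRN41 window with 23 edits, whereas the next nearest predicted window, that of csi-miRN06, needed 65. The strand counted differed between these related hairpins, since csi-miRN41 names the 3′ arm and csi-miR3951 the 5′ arm. The levels differed too, in CPM, which are RPM after TMM scaling (a scaling that evens out the composition of the libraries). csi-miR3951 had 22495 ± 2260 CPM in Cj and 19334 ± 2419 CPM in Pt (SD, n = 9 each), while csi-miRN41 had 1264 ± 164 CPM in Cj and 9.96 ± 16 CPM in Pt. The Pt value of csi-miRN41 rests on Pt pH 8.0 replicate 1, at 51.9 CPM from 4 reads, and the other 8 Pt libraries averaged 4.71 ± 2.82 CPM. For csi-miR3951 the Cj libraries lay between 19674 and 25533 CPM and the Pt libraries between 14614 and 22414 CPM, so the rootstocks overlapped in CPM. In RPM the Cj libraries lay between 20742 and 33650 and the Pt libraries between 13384 and 22342. There Pt pH 8.0 replicate 1 was the only Pt library within the Cj range, and the pooled Pt level was 62.6% of Cj. Reads that match both hairpins could be counted under either name, and this could not be checked from the table.

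csi-miRN30 lies 3984 bases from csi-miRN34 on chromosome 6, measured between the starts of their windows, on the opposite strand. csi-miRN34 was assigned to MIR3627 as well. No other predicted miRNA started within 10 kb of any of the 8, apart from the pair csi-miRN41 and csi-miRN42. The mature strands of csi-miRN30 and csi-miRN34 differ at 4 of 22 bases, in capitals here, and the differences are A8C, C13A, U15A and G17A with the base of csi-miRN30 first.
csi-miRN30: uugucgcAggagCgUuGgcacc
csi-miRN34: uugucgcCggagAgAuAgcacc

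The substitution A8C falls in the last base of the seed. csi-miRN34 was read in all 18 libraries, at 160 RPM in Cj and 87.0 in Pt, so that its pooled Pt level was 54.5% of Cj, against 0.314% for csi-miRN30. At pH 6.5 csi-miRN34 had 297 ± 68.9 CPM in Cj and 51.5 ± 18.7 CPM in Pt, at pH 8.0 60.6 ± 7.75 CPM in Cj and 54.9 ± 28.1 CPM in Pt, and at pH 9.5 64.7 ± 26 CPM in Cj and 184 ± 126 CPM in Pt (SD, n = 3 each). The Cj libraries thus lay above the Pt libraries at pH 6.5, overlapped them at pH 8.0 and lay below them at pH 9.5, where Pt pH 9.5 replicate 1 had 330 CPM. These differences were not tested. The stars of the pair differ at 5 of 21 bases. csi-miRN27 had no such relative. Although it was assigned to MIR477, its mature sequence was 15 edits away from csi-miR473 and 17 from csi-miR477b, the listed miRNAs of that family, and 10 when its reverse complement was taken. csi-miRN04, csi-miRN12, csi-miRN16 and csi-miRN44 had no listed miRNA within 5 edits either.

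**Figure D3:**
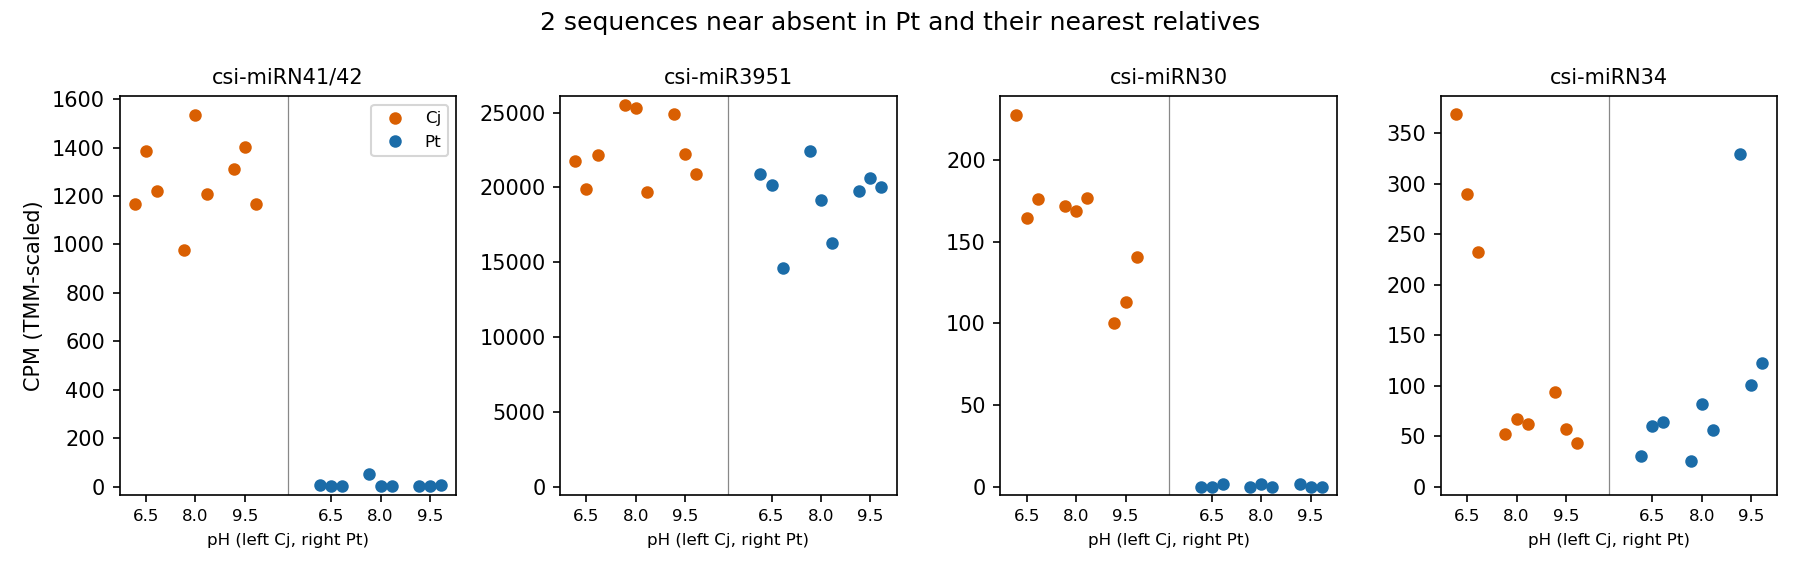
Normalised levels (CPM, TMM-scaled, linear axes from 0) of csi-miRN41 beside csi-miR3951 and of csi-miRN30 beside csi-miRN34 in the 18 libraries, with Cj on the left and Pt on the right of each panel. csi-miRN41 and csi-miRN30 lie near 0 in all Pt libraries, whereas csi-miR3951 (19334 ± 2419 CPM in Pt) and csi-miRN34 (96.9 ± 92.6 CPM in Pt, SD, n = 9) do not.

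The comparisons of pH within Cj addressed whether these miRNAs differ with alkaline stress in the rootstock where most of their reads were counted. The rule did not use pH, so these comparisons were tested. None of the 8 passed the test in any of the 3 comparisons when the model was fitted to all 18 libraries (edgeR quasi-likelihood test, adjusted p under 0.05). At pH 8.0 against pH 6.5 0 of 8 were called, against 36.5% of the 96 miRNAs tested. At pH 9.5 against pH 6.5 0 of 8 were called, against 28.1%, and at pH 9.5 against pH 8.0 0 of 8, against 9.38%. With no adjustment 2, 1 and 1 of the 8 had p under 0.05, against 41, 42 and 24 of the 96 tested. DESeq2 also called 0 of 8 in each comparison, and limma voom called csi-miRN44 at pH 8.0 against pH 6.5 and at pH 9.5 against pH 8.0. In the edgeR fit to the 9 Cj libraries alone 3 of the 8 rose and 0 fell at pH 8.0 against pH 6.5. Of the 90 miRNAs tested in that fit 22 rose and 18 fell. There 1 of 8 fell at pH 9.5 against pH 6.5, against 17 of 90, and 2 of 8 at pH 9.5 against pH 8.0, against 11 of 90. Calls for csi-miRN44, csi-miRN04, csi-miRN12 and csi-miRN30 therefore depended on the fit, as given below. With all 18 libraries the median log2 fold change of the 8 against pH 6.5 was 0.01 at pH 8.0 and 0.04 at pH 9.5. Over all tested miRNAs it was 0.03 and 0.04.

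csi-miRN44 had 3408, 2699 and 3510 CPM at pH 6.5, 6619, 5623 and 4934 CPM at pH 8.0 and 4285, 2508 and 2880 CPM at pH 9.5. All 3 libraries at pH 8.0 lay above all libraries of both other pH values. The libraries of 53.1% of the tested miRNAs did not overlap between pH 8.0 and pH 6.5, and those of 30.2% between pH 9.5 and pH 8.0. The mean was 5725 ± 847 CPM at pH 8.0 and 3206 ± 441 CPM at pH 6.5 (SD, n = 3 each), or 0.84 ± 0.36 as log2 fold change and SE (edgeR adjusted p = 0.0748). At pH 9.5 it was 3224 ± 937 CPM, a difference of 0.01 ± 0.36 from pH 6.5 (adjusted p = 0.982) and of -0.83 ± 0.36 from pH 8.0 (adjusted p = 0.157).

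Whether csi-miRN44 was called depended on the fit. With all 18 libraries it was called at pH 8.0 against pH 6.5 by limma voom (adjusted p = 0.00291) and by edgeR with DESeq2 size factors (adjusted p = 0.0427). In a fit to the 9 Cj libraries alone its log2 fold change at pH 8.0 against pH 6.5 was 1.03 with an edgeR adjusted p of 0.00514, and at pH 9.5 against pH 8.0 it was -0.96 with 0.0184. In the fit without Pt pH 8.0 replicate 1 alone, where csi-miRN44 stood at 195 CPM against 6.33 to 30.1 CPM in the other 8 Pt libraries, the values were 0.88 with an edgeR adjusted p of 0.00196 and -0.84 with 0.00526, where 15.6% of the 96 tested miRNAs were higher in the first comparison and 7.29% lower in the second. The call at pH 8.0 against pH 6.5 was also made without Cj pH 8.0 replicate 3 (0.0463), Cj pH 9.5 replicate 1 (0.0328), Cj pH 9.5 replicate 3 (0.0484), Pt pH 6.5 replicate 1 (0.0246) or Pt pH 8.0 replicate 2 (0.0379), and that at pH 9.5 against pH 8.0 without Cj pH 9.5 replicate 1 (-1.21, adjusted p = 0.0414). In fits to the 6 libraries compared csi-miRN44 was called in both comparisons (edgeR adjusted p = 0.00131 and 0.00416). Its direction was the same under every alternative run for these 2 comparisons.

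csi-miRN12 had 191, 227 and 230 CPM at pH 6.5, 335, 379 and 280 CPM at pH 8.0 and 374, 238 and 275 CPM at pH 9.5. The libraries at pH 8.0 and those at pH 9.5 all lay above those at pH 6.5, comparisons in which the libraries of 53.1% and 52.1% of the tested miRNAs did not overlap. The log2 fold change was 0.62 ± 0.30 at pH 8.0 (edgeR adjusted p = 0.121) and 0.45 ± 0.30 at pH 9.5 (adjusted p = 0.242), both against pH 6.5. csi-miRN12 was called at pH 8.0 in the fit to the 9 Cj libraries (0.81, adjusted p = 0.0240) and without Pt pH 8.0 replicate 1 (0.67, adjusted p = 0.0242). The fit to the 6 libraries compared called it too (0.765, edgeR adjusted p = 0.00851). Between pH 9.5 and pH 8.0 its libraries overlapped, at -0.17 ± 0.30.

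csi-miRN04 had 97.6, 77.1 and 82.6 CPM at pH 6.5, 187, 186 and 89.3 CPM at pH 8.0 and 117, 169 and 93.7 CPM at pH 9.5. At pH 8.0 replicates 1 and 2 were well above pH 6.5, but replicate 3 lay within its range. The log2 fold change at pH 8.0 against pH 6.5 was 0.83 ± 0.35 (edgeR adjusted p = 0.0709). It was 1.03 in the fit to the 9 Cj libraries (adjusted p = 0.0304), and without Cj pH 8.0 replicate 3 it was 1.21 (adjusted p = 0.0128). edgeR called csi-miRN04 too with DESeq2 size factors (adjusted p = 0.0423), known-miRNA TMM factors (0.0455) and the 6 libraries compared (0.0241). The call was also made without Cj pH 9.5 replicate 1 (0.0480), Cj pH 9.5 replicate 3 (0.0484), Pt pH 6.5 replicate 1 (0.0353), Pt pH 8.0 replicate 1 (0.0424) or Pt pH 8.0 replicate 2 (0.0468). At pH 9.5 against pH 6.5 it was 0.55 ± 0.35 (adjusted p = 0.232), with overlapping libraries.

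In the fit to the 9 Cj libraries the 3 of the 8 that rose at pH 8.0 against pH 6.5 were thus csi-miRN04, csi-miRN12 and csi-miRN44, all of 24 nt, where 24.4% of the 90 miRNAs tested in that fit were higher. In that same fit 4 of the 18 other predicted 24-nt miRNAs rose and 0 fell, with a median log2 fold change of 0.48, and of the 19 tested among the 23 other predicted miRNAs of 21 or 22 nt 2 rose and 7 fell, with a median of -0.075. Of the 44 known miRNAs tested in that fit 13 rose and 11 fell, with a median of 0.035. The median over all 90 was 0.22. In the fit to all 18 libraries 0 of the 4 24-nt sequences chosen here were called, while 4 of the 18 others rose and 0 fell. The fourth 24-nt sequence, csi-miRN27, had 137, 115 and 103 CPM at pH 6.5, 83.0, 130 and 105 CPM at pH 8.0 and 63.1, 99.2 and 82.0 CPM at pH 9.5. All 3 libraries at pH 9.5 lay below those at pH 6.5, where 52.1% of tested miRNAs did not overlap, and the log2 fold change was -0.53 ± 0.31 (edgeR adjusted p = 0.184). No fit called it in any comparison, and at pH 8.0 against pH 6.5 its value of -0.14 ± 0.30 changed sign with the scaling.

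csi-miRN30 had 228, 165 and 176 CPM at pH 6.5, 172, 169 and 177 CPM at pH 8.0 and 100, 113 and 141 CPM at pH 9.5. The libraries at pH 9.5 lay below all others, where 52.1% of the tested miRNAs did not overlap between pH 9.5 and pH 6.5 and 30.2% between pH 9.5 and pH 8.0. Those at pH 8.0 lay within the range at pH 6.5. The mean of 118 ± 20.5 CPM at pH 9.5, against 190 ± 33.5 CPM at pH 6.5 (SD, n = 3 each), gave a log2 ratio of -0.68 ± 0.27 (edgeR adjusted p = 0.0624). Between pH 9.5 and pH 8.0 it was -0.54 ± 0.27 (adjusted p = 0.204). In the fit to the 9 Cj libraries both were called, at -0.65 (adjusted p = 0.0105) and -0.72 (adjusted p = 0.0166), where 18.9% and 12.2% of the 90 tested miRNAs were lower. Fits to the 6 libraries compared called both too (edgeR adjusted p = 0.0301 and 0.0403), and edgeR with DESeq2 size factors called the first (0.0472). At pH 8.0 against pH 6.5 the value was -0.13 ± 0.27 and changed sign with the scaling.

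csi-miRN34, its neighbour on chromosome 6, had 369, 289 and 232 CPM at pH 6.5, 52.3, 67.6 and 61.8 CPM at pH 8.0 and 93.4, 57.7 and 42.9 CPM at pH 9.5. It fell at pH 8.0 against pH 6.5 (-2.27 ± 0.39, edgeR adjusted p = 6.66e-05) and at pH 9.5 against pH 6.5 (-2.21 ± 0.39, adjusted p = 5.49e-05). The difference between csi-miRN34 and csi-miRN30 was not tested.

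csi-miRN16 had 214, 200 and 183 CPM at pH 6.5, 224, 186 and 201 CPM at pH 8.0 and 264, 238 and 256 CPM at pH 9.5. Its libraries at pH 9.5 lay above all others, by 0.34 ± 0.27 against pH 6.5 (edgeR adjusted p = 0.290) and 0.31 ± 0.27 against pH 8.0 (adjusted p = 0.485). In these comparisons the libraries of 52.1% and 30.2% of the tested miRNAs did not overlap. No fit called it.

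csi-miRN41 differed little between pH values. It had 1166, 1385 and 1221 CPM at pH 6.5, 978, 1534 and 1209 CPM at pH 8.0 and 1312, 1401 and 1165 CPM at pH 9.5. The libraries of the 3 pH values overlapped throughout. The log2 fold change was -0.02 at pH 8.0 against pH 6.5 (95% interval -0.55 to 0.52), with a sign that changed with the scaling, and 0.04 at pH 9.5 against pH 6.5 (-0.50 to 0.57). Differences of up to about these bounds could not be seen with 3 libraries a group. csi-miR3951 was not called in Cj either, at 0.14 ± 0.16 and 0.09 ± 0.16 in the same comparisons.

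**Figure D4:**
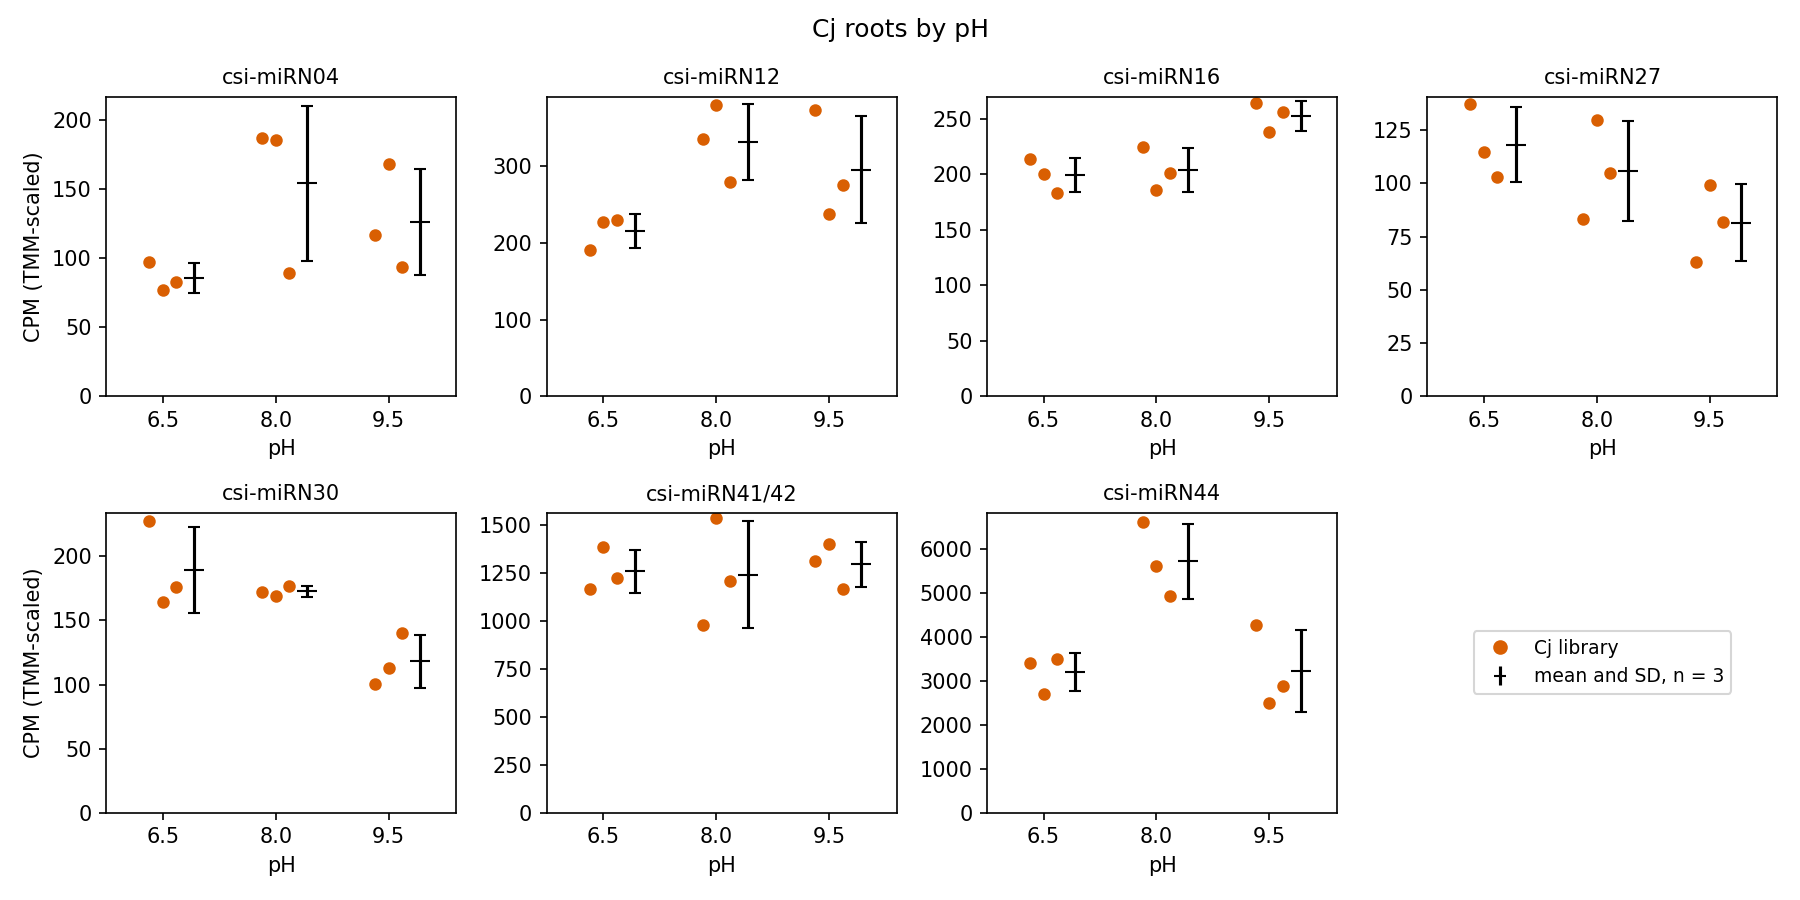
Normalised levels (CPM, TMM-scaled, linear axes from 0) of the 7 sequences in the 9 Cj libraries by pH (points), with the mean and SD of each group of 3 beside them. csi-miRN44 is highest at pH 8.0 (5725 ± 847 CPM), csi-miRN30 lowest at pH 9.5 (118 ± 20.5 CPM), and csi-miRN41 lies between 978 and 1534 CPM throughout.

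**Figure D5:**
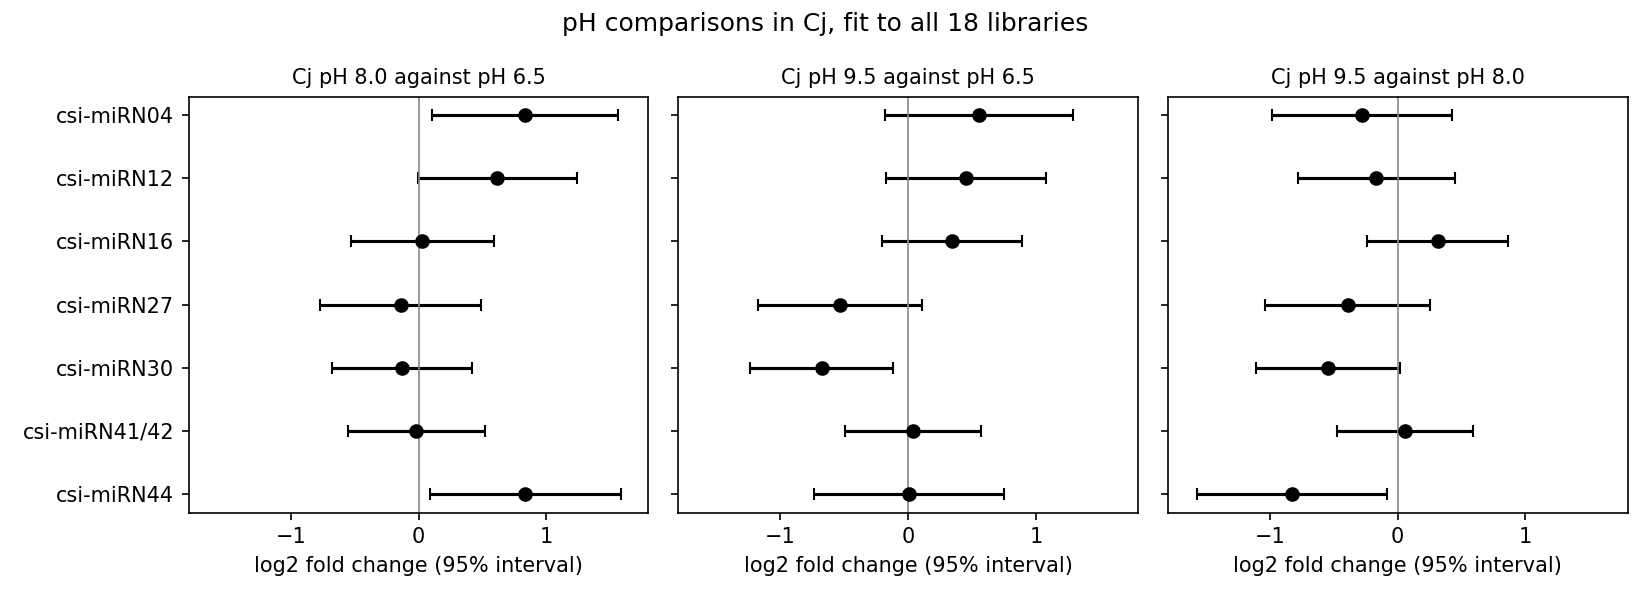
Log2 fold change of the 7 sequences in the 3 pH comparisons in Cj (points) with the 95% interval (bars), from the edgeR fit to all 18 libraries. At pH 8.0 against pH 6.5 the intervals of csi-miRN04 (0.83) and csi-miRN44 (0.84) lie above 0 before adjustment over the 96 tested miRNAs, and after it none passed.

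In Pt a response to pH could not be read. csi-miRN44, the only one with more than 23 reads there, had 24 reads at pH 6.5, 28 at pH 8.0 and 19 at pH 9.5, summed over 3 libraries each, and 15 of the 28 came from Pt pH 8.0 replicate 1.

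The sequences did not vary together across the 9 Cj libraries. Over the 21 pairs of the 7 sequences Pearson's r of log2(CPM + 1) ranged from -0.75 to 0.75 with a median of -0.09. These are descriptions over 9 libraries in 3 pH groups that share their scaling. csi-miRN30 was most like csi-miR473 (r = 0.92) and csi-miR477b (0.89), which both fell at pH 9.5 against pH 6.5 (edgeR adjusted p = 1.46e-05 and 9.53e-07). csi-miRN12 was most like csi-miR3954 (0.88) and csi-miRN36 (0.86), csi-miRN44 like csi-miRN32 (0.86) and csi-miRN12 (0.70), and csi-miRN04 like csi-miRN05 (0.83) and csi-miR3951 (0.79). csi-miRN27 was most like csi-miR477b (0.79) and csi-miRN43 (0.78), and csi-miRN16 like csi-miR172a-5p (0.76) and csi-miR398 (0.75). csi-miRN41 had no close match, with 0.38 for csi-miRN09 at best. Of the miRNAs set beside them here, csi-miRN32 had only 12 reads in Cj, with 0 in 5 of the 9 libraries, so its likeness to csi-miRN44 rests on values near 0. The others had at least 89 reads over the 9 libraries. Among these csi-miRN05 went down to 1 read and csi-miR172a-5p to 2 reads in a library, so their r values rest on few reads as well.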

How the data were processed

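Small RNA libraries were made from roots and sequenced on an Illumina instrument. The authors filtered the reads with Bowtie, aligned the rest with the genome of Citrus sinensis and with known miRNAs, and predicted further miRNAs with miRDeep2. Since neither rootstock is that species, a read that differed from its genome could be lost, which was not tested. Deposited counts are whole reads per mature miRNA and library, which the authors did not normalise. Deposited TPM values relate each count to the total mapped reads of its library and were used here only to obtain those totals. The score deposited by the authors is the total of miRDeep2, and the other deposited values are hairpin energies, positions and lengths. Of the table, 3 repeats of csi-miRN52 were dropped, and 1 line held no values. The 2 degradome libraries were not analysed here. No column of sample values was left unmapped.

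Counts of all 18 libraries were fitted with edgeR 4.0.16 in R 4.3.3 (filterByExpr, minimum count 10, then TMM factors on the sums of listed reads), with 1 mean per group, a quasi-likelihood test and Benjamini-Hochberg adjustment over the 96 tested miRNAs. The study used DESeq 1.10.1. The script was tested on simulated counts. Intervals of log2 fold changes use the degrees of freedom of that test, and those of ratios and shares are exact, at 95%, for counting error only. Relatives were the listed miRNAs within 5 edits of a mature strand, its reverse complement or its star. All 8 members were named in each comparison, with their relatives, assigned families, neighbours within 10 kb, miRNAs next to the thresholds and the 2 most alike. The members, lists and rules were chosen with earlier results of these data known. Alternatives were other scalings, filters, tests and sets of libraries, a replicate block, and leaving out each library in turn (DESeq2 1.42.0, limma 3.58.1).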

Additional observations from a re-analysis of the deposited data

How the results depend on the processing

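The Pt levels of the 7 sequences stayed under 5% of Cj in each alternative run. These runs reuse the reads that chose the sequences, so they are a description and no separate support. With the mean of the libraries in place of pooled reads the Pt levels ranged from 0.151% (csi-miRN27) to 2.19% (csi-miRN12) of Cj, and relative to total mapped reads from 0.173% to 0.825%. With 3 libraries a group, and 1 to 71 reads in Pt, nothing can be said of pH in Pt or of small changes in Cj.

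Calls among the 8 at pH 8.0 against pH 6.5 (0 higher in the fit to all 18 libraries) numbered 2 with DESeq2 size factors, 1 with TMM factors from known miRNAs, 1 with limma voom, 3 with the 9 Cj libraries, 3 with the 6 libraries compared, and 0 to 3 on leaving out 1 library. Over all tested miRNAs 19, 21 and 14 of 96, 22 of 90 and 21 of 89 were higher in these settings in turn. On leaving out 1 library 10 to 18 of 96 were higher. At pH 9.5 against pH 6.5 1 fell (csi-miRN30) with DESeq2 size factors, with the 9 Cj libraries and with the 6 libraries compared. Over all tested miRNAs 17 of 96, 17 of 90 and 20 of 90 fell there. At pH 9.5 against pH 8.0 (0 lower) 1 fell with limma voom, 2 with the 9 Cj and 2 with the 6 libraries, and 0 to 1 on leaving out 1 library. Over all tested miRNAs 7 of 96, 11 of 90 and 9 of 90 fell, and 5 to 7 of 96 on leaving out 1 library. The cause of the differences between fits was not tested.

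With the replicate number as a block the calls were 1 higher at pH 8.0 (csi-miRN44, 0.83, edgeR adjusted p = 0.0184), 1 lower at pH 9.5 against pH 6.5 (csi-miRN30, adjusted p = 0.0478) and 1 lower at pH 9.5 against pH 8.0 (csi-miRN44, adjusted p = 0.0356). Of the 96 tested miRNAs 13 were higher, 22 lower and 7 lower in these comparisons. Whether the replicate numbers pair the samples is not stated. Of 9 same-numbered Cj pairs 1 deviated together with r above 0.1, and 1 of the 9 Cj libraries correlated best with its own number. This showed no pairing, but with 3 libraries a group it cannot exclude one.

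Signs near 0 changed. At pH 8.0 against pH 6.5 csi-miRN41 was 0.10 with DESeq2 size factors, 0.035 with TPM totals, 0.087 without the 5 most abundant, 0.21 with known-miRNA factors, 0.042 unfiltered, 0.099 with DESeq2, 0.17 with the 9 Cj and 0.14 with the 6 libraries. csi-miRN27 was 0.082, 0.056 and 0.019, and csi-miRN30 0.094, 0.065 and 0.0165, with known-miRNA factors, the 9 Cj and the 6 libraries. Leaving out 1 library gave -0.091 to 0.25 for csi-miRN41, -0.20 to 0.11 for csi-miRN27 and -0.22 to 0.0196 for csi-miRN30. At pH 9.5 against pH 6.5 csi-miRN44 was -0.0179 with DESeq2 size factors, -0.0177 with DESeq2, -0.0206 with limma voom, -0.016 with the 6 libraries and -0.037 with the block, and on leaving out 1 library -0.27 to 0.14, with -0.0496 to 0.14 for csi-miRN41. At pH 9.5 against pH 8.0 csi-miRN41 was -0.081 with DESeq2 size factors, -0.078 with DESeq2, -0.019 without the 5 most abundant, -0.12 with known-miRNA factors, -0.095 with the 9 Cj and -0.15 with the 6 libraries, and -0.21 to 0.13 on leaving out 1 library.

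Scaling moved the median of all miRNAs at pH 8.0 against pH 6.5 by 0.12 with DESeq2 size factors, 0.22 with known-miRNA factors, 0.19 with the 9 Cj libraries and 0.14 with the 6 libraries compared. Calls over all miRNAs were 11 higher and 24 lower there, against 19 and 19, 21 and 15, 22 and 18, and 21 and 20 in these 4 settings. The median at pH 9.5 against pH 8.0 moved by -0.15, -0.20, -0.16 and -0.20 in the same settings, and the calls were 3 higher and 6 lower, against 3 and 8, 2 and 8, 2 and 11, and 2 and 9.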
